A study of Mus musculus with 22 samples.

Results

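The 33 genes described here belong to the unfolded protein response. They are the rows of these genes, found by mouse Ensembl identifier and symbol, among the 34585 entries of each count table from thymus, cerebrum and cerebellum. They were taken apart into 14 chaperones and folding enzymes of the endoplasmic reticulum (ER), 5 sensors and transcription factors of the response, 7 genes of the PERK/ATF4 arm and 7 genes of ER-associated degradation. Tol mice carry a transgene with a large open reading frame of scrambled reporter protein fragments, driven by the ubiquitous CAG promoter and placed 3′ of Col1a1 by cassette exchange in C57BL/6J embryonic stem cells. Chimeras were crossed with C57BL/6JRj mice, and the labels give the strain of both Tol and WT mice as C57BL/6. The study describes the Tol mice as heterozygous for the transgene and the WT mice as littermates without it. Age is stated only as a range of weeks for the study's animals in general, and sex is not given in the sources used here. A large scrambled protein may not fold, so the comparison of Tol with WT asks whether genes of this response differ between the genotypes. Thymus and cerebrum had 4 libraries of each genotype, and cerebellum had 4 from WT and 2 from Tol mice.

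The unfolded protein response is the set of signals by which a cell adjusts its ER to the load of protein to be folded. IRE1 (gene Ern1) cuts Xbp1 mRNA so that an active transcription factor is made, and ATF6 is released from the membrane by proteases in the Golgi. PERK (gene Eif2ak3) phosphorylates the initiation factor eIF2, which lowers protein synthesis in general but raises the translation of Atf4. Chaperones and degradation genes are known targets of ATF6 and XBP1, and the genes of amino acid supply and of the late, pro-apoptotic branch are known targets of ATF4. The tables hold mRNA per gene, so they carry neither the cut form of Xbp1 nor the phosphorylation of PERK and eIF2.

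Promoters show which of these genes carry the element through which ATF6 and XBP1 are known to act. A RefSeq promoter on GRCm38.p6, 250 bases before to 50 after the start, was found for 29 of the 33 members. Hyou1, Manf, Atf6 and Derl1 had none in the table. The ER stress response element (ERSE, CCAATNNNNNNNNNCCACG, either strand) was in the promoter of 9 of these 29 genes, or 31.0%, against 0.137% of 27025 genes with a promoter of the same length. Of the 9, 7 were among the 12 chaperones with a promoter and 2 among the 6 degradation genes, and no promoter of a sensor or of the PERK/ATF4 arm held it. The members were chosen as genes of this response, which include known targets of ATF6 and XBP1. Their higher share of promoters with the element was therefore likely in advance and is not a result of these data. A shorter form, ERSE-II (ATTGGNCCACG), was in 2 members (Dnajb11 and Herpud1) and in 0.0444% of all genes. The core of the element bound by ATF4 (TTGCATCA, named CARE core here) was in Chac1 and Herpud1 and in 1.03% of all genes, and the XBP1 core (TGACGTGG) was in 0 members and in 0.714% of all genes. ERSE and ERSE-II share the letters CCACG, but no match of one overlapped a match of another motif in a member's promoter. The sequences below, from RefSeq and written 5′ to 3′ in the direction of the gene, show these elements in capitals; where a match was on the other strand, the capitals are its reverse complement. Hspa5 is given with 5 bases on each side of the element and the others with 12.
Hspa5, chr2:34772020-34772048, + strand: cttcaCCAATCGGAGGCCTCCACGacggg
Hsp90b1, chr10:86705521-86705563, - strand: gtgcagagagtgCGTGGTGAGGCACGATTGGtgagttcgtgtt
Canx, chr11:50325788-50325830, - strand: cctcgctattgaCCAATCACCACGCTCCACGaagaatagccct
Dnajc3, chr14:118937815-118937857, + strand: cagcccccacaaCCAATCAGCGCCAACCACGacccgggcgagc
Calr, chr8:84847063-84847105, - strand: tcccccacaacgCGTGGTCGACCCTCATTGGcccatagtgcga
Creld2, chr15:88819508-88819550, + strand: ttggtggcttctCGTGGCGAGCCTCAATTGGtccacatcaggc
Syvn1, chr19:6046520-6046562, + strand: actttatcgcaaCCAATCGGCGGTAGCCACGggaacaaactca
Derl3, chr10:75893230-75893272, + strand: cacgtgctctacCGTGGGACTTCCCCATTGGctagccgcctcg
Herpud1, chr8:94386365-94386399, + strand: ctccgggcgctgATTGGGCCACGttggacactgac
Chac1, chr2:119351037-119351068, + strand: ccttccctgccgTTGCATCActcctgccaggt
The first base of the 10 ERSE matches lay 44 bases (Syvn1) to 212 bases (Hsp90b1, which holds another at 107) before the start. In the Hspa5 promoter it lay 65 bases before the RefSeq start. GENCODE vM21 also holds a transcript, Hspa5-201, that starts upstream of this element, so the element lies in the 5′ UTR of that longer transcript.

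**Figure D1:**
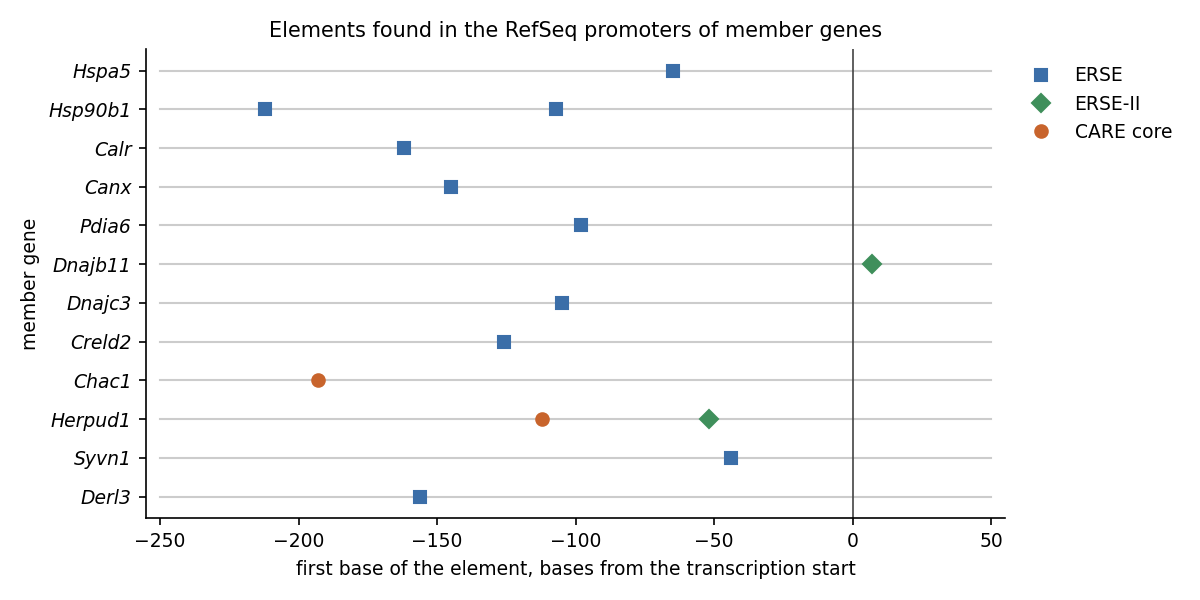
Position of each element in the promoters of the 12 members that held one; the x axis is the distance of the element's first base from the transcription start in bases, and symbols mark the kind of element. The ERSE matches lie between 212 and 44 bases before the start.

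The transgene's own mRNA followed the labels: it had 448 to 1023 counts in Tol thymi, 2240 to 3520 in Tol cerebra and 3479 and 4628 in the Tol cerebella, and at most 2 counts in any WT library. Library totals were 14543698 to 34776973 counts. Levels are given as CPM, counts scaled to a common library size with TMM factors, within an organ for genotypes and over the 12 WT libraries for organs. Summed levels of the organs' own markers were far above those of the other organs except in 1 library: the 11 cerebellum markers summed to 580 CPM in cerebellum Tol 2, against 4020 to 10063 CPM in the other 5 cerebella and 260 to 569 CPM in the cerebra. The library labelled cerebellum Tol 2 therefore does not carry the marker level of its label, and cerebellum results that rest on it are also given without it, a choice made after seeing the data. Its cerebrum markers summed to 898.8 CPM, against at most 850.5 CPM in the other 5 cerebella and 5410 to 7699 CPM in the cerebra. Cerebellum Tol 2 thus lacked the marker level of a cerebrum as well. Choroid plexus markers also varied among WT cerebella, from 173 to 7074 CPM.

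The members differed more between organs than between genotypes. In WT mice, 24 of the 33 members differed between thymus and cerebrum by edgeR's quasi-likelihood test (adjusted p under 0.05 over 17413 genes), 15 higher and 9 lower in thymus. Over all genes tested, 43.4% were called higher and 40.9% lower in that comparison, so the members' share of calls was not above the background. Against cerebellum, 24 members differed, again 15 higher and 9 lower (background 41.8% and 41.7%). Cerebellum and cerebrum differed in 10 members, 7 higher and 3 lower in cerebellum (background 26.4% and 24.6%). These are whole organs, in which fewer cells of a type and less RNA per cell cannot be told apart.

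Per kilobase of the longest transcript, Calr (calreticulin, a lectin chaperone) was the highest member in all 3 WT organs, at 176 CPM per kb in thymus, 173 in cerebrum and 152 in cerebellum. Hsp90b1, the ER member of the HSP90 family, followed in the brain at 140 and 152 CPM per kb, and was at 150 in thymus. Of the 14 chaperones, 7 were called higher and 3 lower in WT thymus than in WT cerebrum (background 43.4% and 40.9%). By sign alone, 11 were higher and 3 lower. Dnajc3, a co-chaperone that also inhibits PERK, had the largest difference: 250 ± 14.4 CPM (SD, n = 4) in thymus, 76.1 ± 3.10 in cerebrum and 105 ± 10.3 in cerebellum. That is a log2 difference of 1.71 (SE 0.08, edgeR adjusted p = 2.90e-10) from cerebrum and 1.25 (SE 0.08, adjusted p = 6.09e-09) from cerebellum, and cerebellum exceeded cerebrum by 0.46 (SE 0.08, adjusted p = 0.000291). Dnajb9, a co-chaperone of BiP, went the other way, with 26.8 ± 0.439 CPM in thymus and 45.0 ± 2.25 in cerebrum (log2 difference -0.75, SE 0.06). Calr itself had the smallest difference between thymus and cerebrum, 0.03 on the log2 scale (SE 0.09, edgeR adjusted p = 0.802). The smallest difference between thymus and cerebellum was that of Hyou1 (0.01, SE 0.06), and between the brain parts that of Dnajb11 (0.01, SE 0.08).

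The sensors divided. Ern1 and Eif2ak3 were higher in WT thymus than in WT cerebrum, by 1.03 (SE 0.09) and 1.02 (SE 0.06) on the log2 scale. Atf6 was lower: 29.99 ± 3.81 CPM in thymus, 118 ± 28.4 in cerebrum and 89.3 ± 6.49 in cerebellum, a log2 difference of -1.97 (SE 0.16, edgeR adjusted p = 7.93e-08) from cerebrum and -1.57 (SE 0.16) from cerebellum. The paralogue Atf6b had the smallest difference of the sensors in both thymus comparisons, 0.15 (SE 0.09, edgeR adjusted p = 0.131) from cerebrum and 0.31 (SE 0.09, adjusted p = 0.00576) from cerebellum. Xbp1 was at 116 ± 14.6 CPM in thymus, 80.8 ± 5.45 in cerebrum and 87.1 ± 10.98 in cerebellum. Thymus was above both brain parts (log2 differences 0.52 and 0.41, SE 0.11 and 0.10), while the brain parts did not differ beyond their spread (0.11, SE 0.11, edgeR adjusted p = 0.414).

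The PERK/ATF4 arm held the members with the largest deficit in thymus. Chac1, which degrades glutathione, had 1 to 8 counts per WT thymus library, or 0.198 ± 0.112 CPM, against 8.02 ± 1.08 in cerebrum and 6.62 ± 0.921 in cerebellum. Its fitted log2 differences were -5.28 (SE 0.30) and -5.00 (SE 0.29). Since it passed the filter through the brain libraries alone, it had to differ. Asns, asparagine synthetase, had 3.67 ± 0.603 CPM in thymus against 94.3 ± 8.98 in cerebrum and 81.2 ± 8.05 in cerebellum. It was 25.8-fold and 22.2-fold lower in thymus (log2 differences -4.69 and -4.47, SE 0.13 each, edgeR adjusted p = 3.26e-12 and 4.81e-12). Atf4 mRNA differed far less, with 92.4 ± 0.845 CPM in thymus, 140 ± 15.5 in cerebrum and 134 ± 15.6 in cerebellum (log2 differences -0.60 and -0.54, SE 0.09 each). Its level in the brain parts did not differ beyond their spread (-0.06, SE 0.09, edgeR adjusted p = 0.643). Ddit3 (CHOP, a transcription factor of the late response) was also lower in thymus, at 14.03 ± 1.13 CPM against 23.2 ± 4.09 and 20.3 ± 3.04. Trib3 was the member of this arm that differed most between the brain parts, with 0.415 ± 0.252 CPM in cerebrum and 1.39 ± 0.452 in cerebellum (log2 difference 1.71, SE 0.40, edgeR adjusted p = 0.00338), and thymus and cerebellum did not differ beyond their spread (0.13, SE 0.35). The cerebrum level rests on 2 to 13 counts in the WT libraries, so the brain difference is a fitted value on few counts. Trib3 entered this fit through thymus (24 to 55 counts) as well as cerebellum, so the filter alone did not fix the difference between the brain parts. Sesn2 had the smallest difference between thymus and cerebrum (-0.20, SE 0.11).

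Edem1 had the largest difference of all members in the other direction. It codes for a protein that hands misfolded glycoproteins over for degradation. It was at 881 ± 39.3 CPM in WT thymus, 26.6 ± 3.401 in cerebrum and 23.0 ± 4.53 in cerebellum, 33.2-fold and 38.4-fold higher in thymus (log2 differences 5.05 and 5.26, SE 0.15 each, edgeR adjusted p = 6.27e-12 and 5.15e-12). Per kilobase, 151 CPM put Edem1 second among the members in thymus, after Calr. The other degradation genes did not share this: Sel1l, the scaffold of the HRD1 ligase, was lower in thymus (98.0 ± 4.61 CPM against 251 ± 11.7 in cerebrum, log2 difference -1.36, SE 0.06). Herpud1 had 54.5 ± 3.54 CPM in thymus and 53.5 ± 10.5 in cerebrum, the smallest difference of the arm there (0.03, SE 0.12, edgeR adjusted p = 0.837). Derl1, a channel component, did not differ beyond its spread between thymus and cerebellum (0.04, SE 0.06) but was 0.53 higher on the log2 scale in cerebellum than in cerebrum (SE 0.06, edgeR adjusted p = 1.34e-05), and Derl2 differed least between the brain parts (0.10, SE 0.08).

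**Figure D2:**
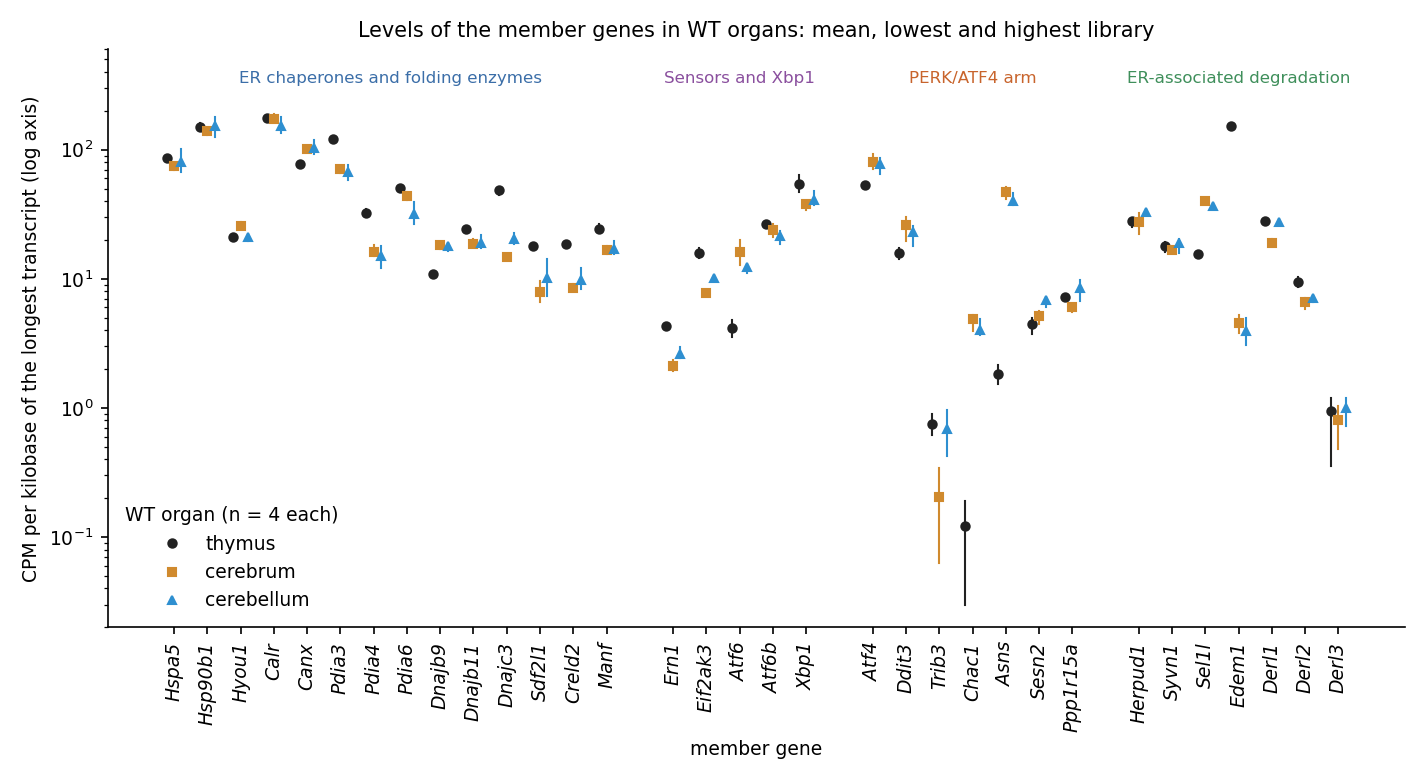
Level of each member in the 3 WT organs, as CPM per kilobase on a log axis, with symbols for the mean of 4 libraries and lines from the lowest to the highest library. Edem1 stands at 151 CPM per kb in thymus against 4.57 and 3.95 in cerebrum and cerebellum, and Asns at 1.82 against 46.8 and 40.3.

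Between genotypes, no member passed the adjusted threshold of edgeR's test in any organ. In thymus, 32 members were tested, since Chac1 did not pass the filter on low counts, and edgeR called 0 of them at an adjusted p under 0.05, against 16 of 16248 genes tested (0.0985%). At an unadjusted p under 0.05, 10 members passed, 9 lower and 1 higher in Tol thymus, where 24.4% of all genes passed, 11.1% lower and 13.3% higher. DESeq2 called 5 members and had 11 under 0.05 before adjustment, where it called 7.98% of all genes and had 23.1% under 0.05. The 5 were Atf4, Hspa5, Pdia4, Dnajb9 and Sel1l. Without thymus Tol 1, the library with the largest total, edgeR called 5 (Atf4, Hspa5, Pdia4, Sel1l and Manf) and 2978 genes in all (18.2%). In 4 members the genotypes did not overlap, against 11.8% of all genes.

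Atf4 was the member with the lowest p in thymus and the 1 of these 10 that was higher. The gene (ENSMUSG00000042406, GRCm38 chromosome 15, 80255184 to 80257541, + strand) codes for the factor that turns on genes of amino acid supply. It measured 117, 144, 138 and 139 CPM in the Tol thymi, against 110, 108, 108 and 107 CPM in the WT thymi. Every Tol thymus was above every WT thymus, with Tol 1 nearest to them. The log2 fold change was 0.32 (SE 0.07, edgeR unadjusted p = 0.000640, adjusted p = 0.0710). The known targets within the PERK/ATF4 arm that were tested each had an edgeR unadjusted p above 0.05, and ATF4 targets outside it are given below. Ddit3 had a log2 fold change of 0.13 (SE 0.08, edgeR unadjusted p = 0.160), Asns of 0.08 (SE 0.15), Trib3 of 0.02 (SE 0.19) and Sesn2 of -0.06 (SE 0.09). The Tol thymi had 16.3, 18.9, 19.4 and 17.3 CPM of Ddit3 and the WT thymi 16.2, 16.4, 15.03 and 17.9, which overlap. Of the 6 members of this arm tested, 5 had a positive and 1 a negative log2 fold change (median 0.07, against 0.01 for all genes tested).

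Hspa5 codes for BiP, the main HSP70 chaperone of the ER (ENSMUSG00000026864, GRCm38 chromosome 2, 34771970 to 34777547, + strand). Tol thymi had 293, 306, 340 and 310 CPM, and WT thymi 364, 363, 363 and 383 CPM. The groups did not overlap, and the log2 fold change was -0.24 (SE 0.06, edgeR unadjusted p = 0.00280, adjusted p = 0.0862), that is 15.2% lower in Tol. Pdia4, a disulfide isomerase (ENSMUSG00000025823, chromosome 6, 47796141 to 47813430, - strand), was at 75.2, 75.4, 84.7 and 77.9 CPM in Tol against 91.5, 88.9, 87.2 and 97.2 CPM in WT thymi, with no overlap (log2 fold change -0.22, SE 0.06, unadjusted p = 0.00348, adjusted p = 0.0863). Dnajb9 (ENSMUSG00000014905, chromosome 12, 44205559 to 44210326, - strand) was at 25.5, 27.1, 29.0 and 25.0 CPM in Tol against 31.5, 31.4, 31.1 and 31.5 CPM in WT thymi. The WT values lay close together and all above the Tol values (log2 fold change -0.24, SE 0.07, unadjusted p = 0.00422, adjusted p = 0.0899). Dnajc3 (log2 fold change -0.17, SE 0.07, edgeR unadjusted p = 0.0335, adjusted p = 0.171), Hsp90b1 (-0.15, SE 0.07, unadjusted p = 0.0487, adjusted p = 0.202) and Hyou1, an ER HSP110 relative (-0.14, SE 0.06, unadjusted p = 0.0315, adjusted p = 0.166), had groups that overlapped.

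The chaperones did not all go this way. Of the 14, 9 had a negative and 5 a positive log2 fold change in thymus (median -0.09). Pdia3 and Pdia6, also disulfide isomerases, were near 0 (0.00 and 0.01, SE 0.06 and 0.07). Manf, a secreted ER protein, had 62.8, 76.4, 69.9 and 78.2 CPM in Tol thymi and 62.9, 61.3, 63.9 and 69.6 in WT thymi (0.15, SE 0.08, edgeR unadjusted p = 0.0665, adjusted p = 0.237). Tol 1 lay within the WT range and the other 3 above it.

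All 7 degradation genes tested had a negative log2 fold change in thymus (median -0.16). Sel1l (ENSMUSG00000020964, chromosome 12, 91806043 to 91849157, - strand) had 109, 92.4, 100.3 and 91.3 CPM in Tol thymi, against 118, 109, 112 and 119 CPM in WT thymi. Tol 1 lay within the WT range, narrowly, and the other 3 below it (-0.22, SE 0.07, edgeR unadjusted p = 0.00752, adjusted p = 0.106). Syvn1, the HRD1 ubiquitin ligase that works with SEL1L, was at 68.8, 60.2, 68.5 and 60.3 CPM against 76.5, 73.4, 66.1 and 77.0 CPM (-0.18, SE 0.07, edgeR unadjusted p = 0.0245, adjusted p = 0.149), with Tol 1 and Tol 3 above the lowest WT library. Herpud1, which recruits the ligase complex, had -0.15 (SE 0.07, edgeR unadjusted p = 0.0476, adjusted p = 0.200). Edem1 had -0.16 (SE 0.07, edgeR unadjusted p = 0.0550, adjusted p = 0.215), from 859 to 1017 CPM over the Tol thymi and from 994 to 1089 over the WT thymi. Derl1, Derl2 and Derl3 were at -0.02, -0.04 and -0.25, the last on 9 to 52 counts per library (SE 0.33). The common sign did not hold under every setting. With an offset for length and GC content Derl1 was at 0.00, Edem1 at -0.04 and Sel1l at -0.09. Derl1 was at 0.03 without thymus Tol 1, and Derl1 and Derl2 were at 0.004 and 0.002 without thymus WT 4.

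All 5 sensors had a negative log2 fold change in thymus, from -0.13 to -0.08, and none had an unadjusted p under 0.05. With the offset for length and GC content Ern1 (0.06) and Atf6 (0.04) became positive and Eif2ak3 was at -0.06. Eif2ak3 had the lowest p, with -0.13 (SE 0.08, edgeR unadjusted p = 0.107). Xbp1 had 117, 130, 145 and 117 CPM in Tol thymi against 139, 128, 118 and 156 in WT thymi, so the groups overlapped throughout (-0.09, SE 0.09, edgeR unadjusted p = 0.345, adjusted p = 0.575).

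**Figure D3:**
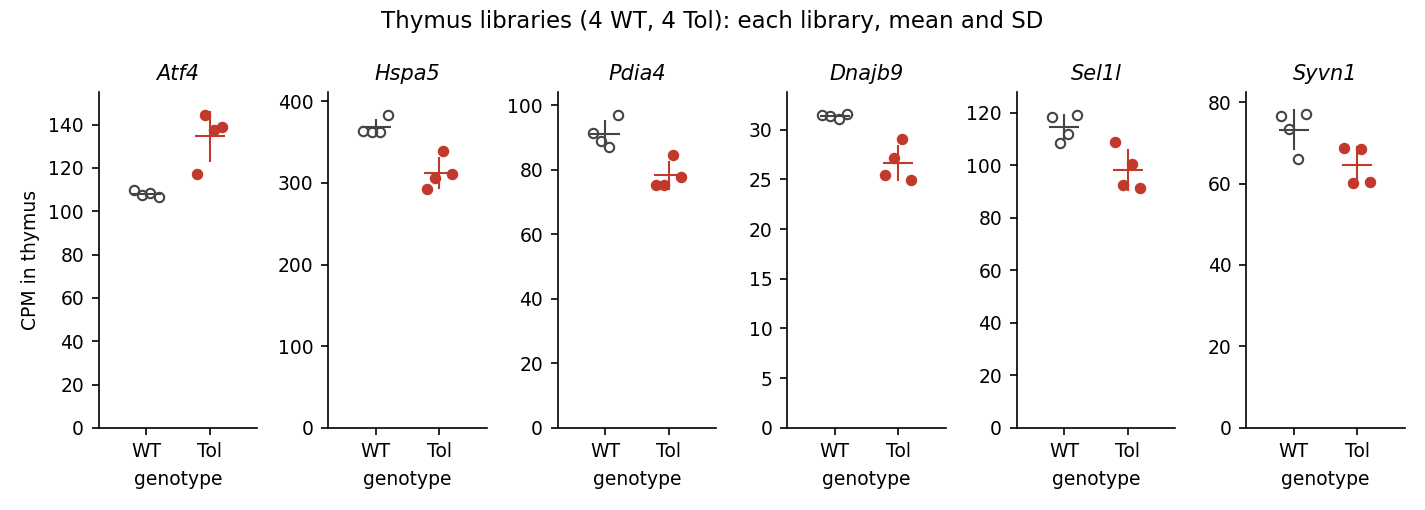
CPM of 6 members in each thymus library, open circles for the 4 WT and filled circles for the 4 Tol libraries, with the mean and SD; the y axes start at 0. Atf4 is above the WT libraries in every Tol library, Hspa5, Pdia4 and Dnajb9 are below them in every Tol library, and Sel1l and Syvn1 overlap.

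Some marker lists of other cell types also had lower values in Tol thymi. Summed levels overlapped between the genotypes for fibroblast markers and for B and plasma cell markers, but not for the genes listed as choroid plexus markers. All 8 fibroblast markers had a negative log2 fold change (median -0.45, 6 with an unadjusted p under 0.05), and their sum ran from 308 to 426 CPM over the Tol thymi and from 399 to 624 over the WT thymi. Of 11 B and plasma cell markers tested, 8 were negative (median -0.18), with sums from 199 to 222 CPM over the Tol and from 199.6 to 282 over the WT thymi. Of 4 choroid plexus markers tested, 3 were negative (median -0.25). All 9 of that list summed to between 90.2 and 117 CPM over the Tol and between 118 and 153 over the WT thymi. Aqp1 made up a large part of these sums: its highest Tol value was 46.6 CPM and its lowest WT value 50.3 CPM. Of the 4 tested, it was the 1 gene whose genotypes did not overlap. Whether this list marks any cell type in thymus was not tested. Every marker of these lists had counts in both genotypes. The 11 thymocyte markers had sums from 10686 to 13296 CPM over the Tol and from 12816 to 14297 over the WT thymi, 6 positive and 5 negative. Log2 fold changes in thymus also fell with transcript length over all genes (Spearman's rho -0.407 across 16199 genes, which share their libraries and are not independent). With an offset for length and GC content 9 members, against 10, had an unadjusted p under 0.05. That count does not show whether they were the same members, and Sel1l was at -0.09 with the offset. The part of cell composition in the members' values was not tested.

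Members whose promoter holds an ERSE had a median log2 fold change of -0.15 in thymus, 7 of 9 negative, and the 19 members tested whose promoter does not hold it had -0.06, 12 of 19 negative. The ranges overlapped, from -0.25 to 0.03 with the element and from -0.24 to 0.32 without. The 4 members with no promoter in the table had a median of -0.06, 3 of 4 negative. In cerebrum the medians with and without the element were -0.10 and -0.03. In cerebellum they were -0.12 and -0.004, and -0.07 and -0.02 without cerebellum Tol 2. No sensor or PERK/ATF4 promoter held the element, so the groups with and without it also differ by arm. These are descriptions without a test.

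In cerebrum, edgeR called 0 of 32 members tested (Trib3, with 2 to 13 counts, did not pass the filter), where 0.0% of 15596 genes were called, and DESeq2 called 0 with 2 under 0.05 before adjustment (background 1.2% and 9.01%). At an unadjusted p under 0.05, 2 members passed, against 9.66% of all genes. Xbp1 (ENSMUSG00000020484, chromosome 11, 5520659 to 5525893, + strand) had 63.94, 59.45, 61.3 and 61.8 CPM in Tol cerebra and 63.98, 75.5, 72.2 and 72.2 in WT cerebra. The groups did not overlap, but Tol 1 and WT 1 nearly met, and the log2 fold change was -0.20 (SE 0.06, edgeR unadjusted p = 0.00936, adjusted p = 0.341). Atf6b had 47.9, 47.5, 50.3 and 41.4 CPM in Tol cerebra and 56.5, 53.3, 47.3 and 59.6 in WT cerebra, with WT 3 among the Tol values (-0.21, SE 0.09, edgeR unadjusted p = 0.0390, adjusted p = 0.473). Creld2 was the other member without overlap, so 2 in all (background 6.5%), from 8.19 to 9.77 CPM over the Tol and from 9.815 to 10.95 over the WT cerebra.

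Hspa5 had 220, 205, 201 and 268 CPM in Tol cerebra and 224, 239, 241 and 254 in WT cerebra. Tol 4 was the highest of all 8 libraries and the other 3 Tol the lowest (-0.10, SE 0.10, edgeR unadjusted p = 0.323). Atf4 had 105, 124, 115 and 99.2 CPM in Tol cerebra and 123, 142, 118 and 108 in WT cerebra (-0.14, SE 0.10, edgeR unadjusted p = 0.186). Ddit3 had 17.4, 18.9, 15.8 and 18.9 CPM against 15.5, 22.6, 23.5 and 19.8 (-0.20, SE 0.13, edgeR unadjusted p = 0.167, the lowest of the PERK/ATF4 arm). Both genes overlapped between genotypes. Of the chaperones, Pdia4 had the lowest p (-0.17, SE 0.08, edgeR unadjusted p = 0.0641), and of the degradation genes Derl1 (-0.09, SE 0.06, edgeR unadjusted p = 0.139). The medians by arm were -0.07 for chaperones, -0.03 for sensors, -0.11 for the PERK/ATF4 arm and -0.04 for degradation, against -0.0049 for all genes tested. Over all genes, log2 fold changes in cerebrum fell with GC content (Spearman's rho -0.280 across 15554 genes, which are not independent). They rose with transcript length (rho 0.158). Cerebrum markers summed to between 5763 and 7699 CPM over the Tol cerebra and between 5410 and 7491 over the WT cerebra, and 6 of 8 fibroblast markers were positive (median 0.23); their part in the members' values was not tested.

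**Figure D4:**
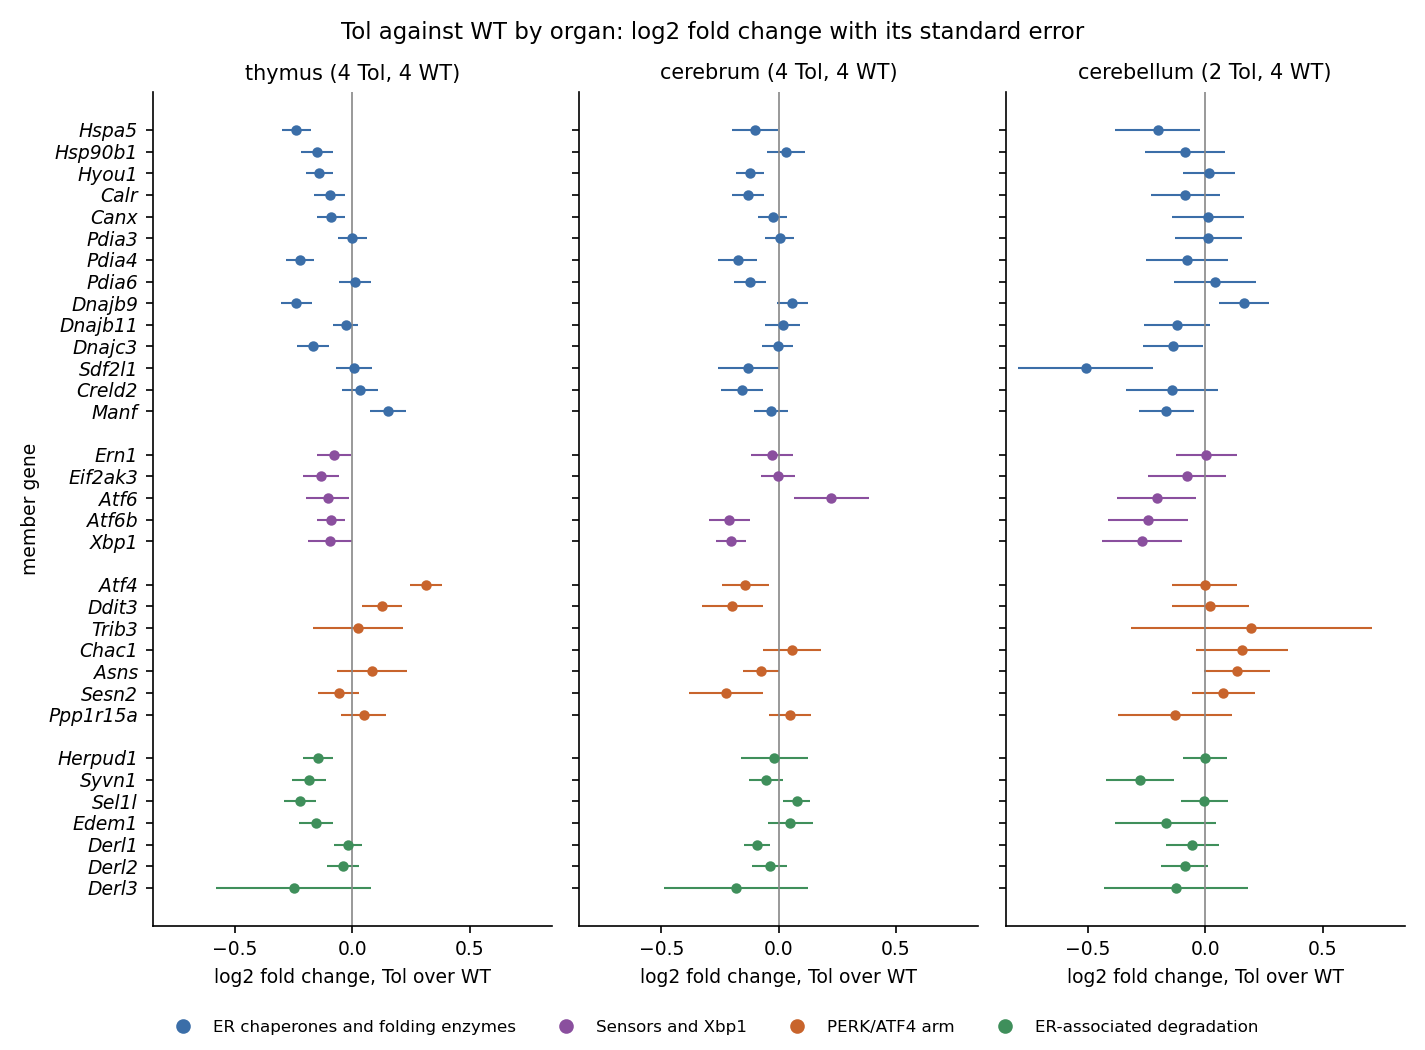
Log2 fold change of Tol over WT with its standard error for each member, in 3 panels by organ and coloured by arm. In thymus the degradation genes and sensors lie at or below 0 and Atf4 at 0.32, while in cerebrum the values range from -0.22 to 0.22 and in cerebellum the errors are wider.

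In cerebellum, edgeR and DESeq2 each called 0 of 33 members, with 0.0% of 16662 genes called by edgeR. In both tools 0 members had an unadjusted p under 0.05, against 3.16% of all genes by edgeR and 3.94% by DESeq2, which called 0.054% of them. Between libraries the biological coefficient of variation was 33.2%, against 11.2% in thymus and 16.6% in cerebrum, and the SE of Hspa5 was 0.18, against 0.06 in thymus. Manf was the 1 member without overlap (background 10.8%), with 34.1 and 32.2 CPM in Tol cerebella and from 34.6 to 42.05 over the WT cerebella. Syvn1 had the lowest p, with 57.7 and 47.75 CPM in Tol cerebella and 64.5, 53.7, 69.45 and 67.95 in WT cerebella (-0.28, SE 0.15, edgeR unadjusted p = 0.106, adjusted p = 0.957; -0.15 without Tol 2). Xbp1 was at 80.7 and 59.6 CPM against 76.7, 78.0, 85.2 and 98.5 CPM. Its log2 fold change of -0.27 (SE 0.17, edgeR unadjusted p = 0.164), the lowest p of the sensors, was -0.07 (SE 0.18) without cerebellum Tol 2 and -0.51 (SE 0.18, unadjusted p = 0.0318) without Tol 1. Without either of them a single Tol library stands against 4 WT libraries, so the error comes from the WT libraries and the lone Tol library is assumed to vary like them.

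Cerebellum Tol 2 also had the lowest level of Eif2ak3, Atf6 and Atf6b among the 6 cerebella. Eif2ak3 was at 50.6 CPM in Tol 1 and 33.9 in Tol 2, against 42.7 to 45.8 CPM in WT cerebella, and Atf6 at 88.7 and 61.4 CPM against 79.1 to 92.1 CPM. Without Tol 1, Eif2ak3, Atf6, Atf6b and Xbp1 had an unadjusted p under 0.05 in edgeR's test, and without Tol 2 no member did. Those p-values rest on Tol 2 alone, the library that lacks the marker level of its label. Hspa5 had 256 and 243 CPM in Tol cerebella and 240, 292, 260 and 356 in WT cerebella (-0.20, SE 0.18, edgeR unadjusted p = 0.306; -0.17 without Tol 2). Atf4 had 139 and 121 CPM against 144.5, 110, 134 and 132 (-0.002, SE 0.14, edgeR unadjusted p = 0.989; 0.09 without Tol 2). Ddit3 had 20.9 and 19.2 CPM against 20.1, 15.6, 21.4 and 21.85 (0.02, SE 0.16, edgeR unadjusted p = 0.897; 0.08 without Tol 2). Both genes lay within the WT range. Sdf2l1, a BiP cofactor, had the lowest p of the chaperones (-0.51, SE 0.29, edgeR unadjusted p = 0.124; -0.38 without Tol 2), and Asns that of the PERK/ATF4 arm (0.13, SE 0.14, edgeR unadjusted p = 0.373; -0.04 without Tol 2). All 8 fibroblast markers were positive in this comparison (median 0.85), with sums of 233 and 426 CPM in the Tol cerebella and from 158 to 212 over the WT cerebella. The 9 choroid plexus markers had a median of -2.96, and the 11 cerebellum markers were all negative (median -0.48). Without Tol 2 the 11 cerebellum markers were all positive (median 0.41), the fibroblast markers were 5 positive and 3 negative (median 0.44), and the choroid plexus markers kept a negative median of -3.09. The negative cerebellum marker values thus rest on Tol 2. Tol 1 had the highest summed level of the 6 cerebella. Their part in the members' values was not tested.

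**Figure D5:**
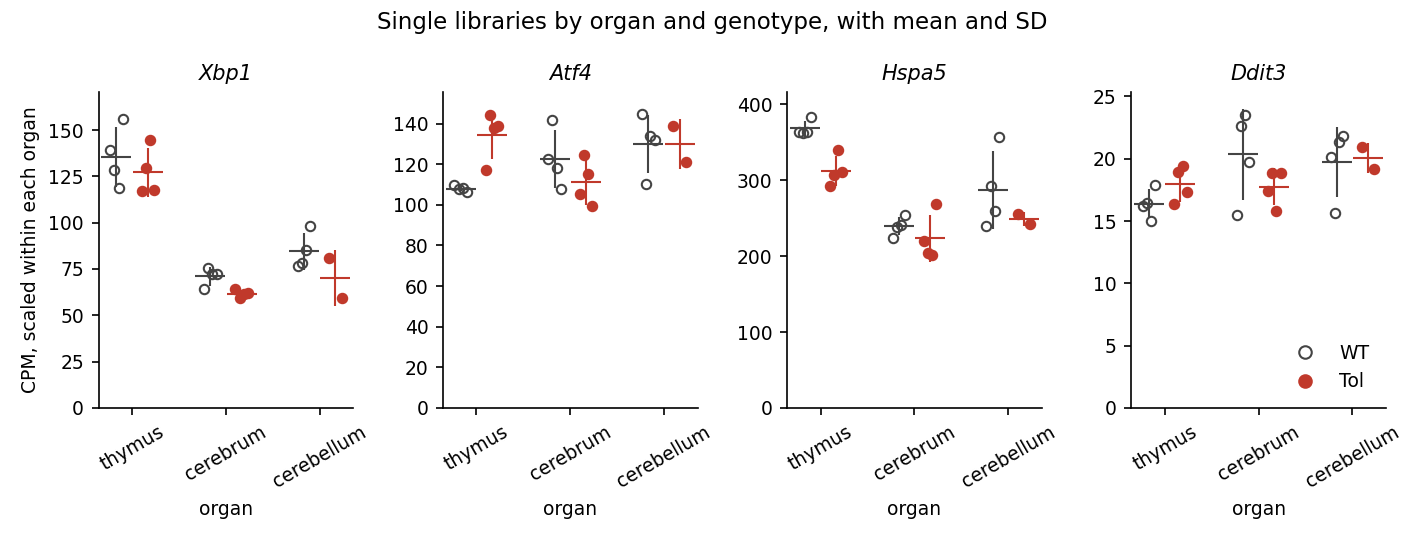
CPM of Xbp1, Atf4, Hspa5 and Ddit3 in each library by organ, open circles for WT and filled circles for Tol, with the mean and SD; levels are scaled within each organ, and the y axes start at 0. Atf4 in thymus is above the WT libraries in every Tol library, and the other panels show overlap except Hspa5 in thymus and Xbp1 in cerebrum.

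Whether the effect of Tol differed between cerebrum and thymus was tested in a model of genotype by organ over 16 libraries. It called 0 of 33 members, against 0.107% of 17774 genes, and 3 members had an unadjusted p under 0.05, against 16.5% of all genes. For Atf4 the cerebrum effect was 0.46 lower on the log2 scale (difference -0.46, SE 0.12, edgeR unadjusted p = 0.00166, adjusted p = 0.116). For Dnajb9 it was 0.29 higher (SE 0.09, unadjusted p = 0.00469, adjusted p = 0.137) and for Sel1l 0.29 higher (SE 0.09, unadjusted p = 0.00683, adjusted p = 0.154). DESeq2 called Atf4 and Sel1l, where it called 2.78% of all genes, as did edgeR without thymus Tol 1, where 6.22% were called. Sel1l in cerebrum had 234.1, 234.5, 236 and 226 CPM in Tol and 235.3, 222, 213 and 213 in WT mice, which overlap, with a log2 fold change of 0.08 (SE 0.06).

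Of the 31 members tested in all 3 organs, 12 had a negative log2 fold change in each, 1 (Pdia3) a positive one in each, and 18 were mixed. Over all 14086 genes tested in all organs, 13.86% were negative and 13.27% positive in each. The 12 were Hspa5, Calr, Pdia4, Dnajc3, Eif2ak3, Atf6b, Xbp1, Herpud1, Syvn1, Derl1, Derl2 and Derl3. No member of the PERK/ATF4 arm was among them. Without cerebellum Tol 2 Eif2ak3 (0.18) and Derl1 (0.08) were positive in cerebellum, Hyou1 and Canx were negative in each organ, and the count was again 12 of 31, against 14.38% of all genes. The 1 gene positive in each organ was then Ppp1r15a, and Pdia3 was at -0.05 in cerebellum. The study's figure legend counts 4 Tol and 4 WT mice for the organs together, so organs may share mice. Which libraries share a mouse is not stated, and the main fits, also those between organs, held no term for the mouse. The sign alone was counted, whatever the error.

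Other genes of the same pathways, 156 in all from 6 lists, were read for comparison in the same fits. EdgeR called 0 of the 153 tested in thymus, 0 of 149 in cerebrum and 0 of 153 in cerebellum, with 37, 13 and 3 at an unadjusted p under 0.05, where 24.4%, 9.66% and 3.16% of all genes passed. Counts by list are read against these shares. DESeq2 called 16 in thymus, 3 in cerebrum (Ddit4, Gpt2 and Tmbim6, all lower in Tol) and 0 in cerebellum, with 35, 14 and 4 at an unadjusted p under 0.05. Its background was 7.98%, 1.2% and 0.054% of all genes called, and 23.1%, 9.01% and 3.94% under 0.05. In thymus, 13 of 14 genes of eIF2 and its kinases had a positive log2 fold change (median 0.11, 3 with an unadjusted p under 0.05), led by Nck2, an adaptor that acts on the eIF2 kinases (0.27, SE 0.07, edgeR unadjusted p = 0.00160). Other ATF4 targets were 22 positive and 14 negative (median 0.02, 2 under 0.05 in each direction), led by Jdp2 at -0.77 (SE 0.14, unadjusted p = 0.000140). Other folding genes were 14 positive and 14 negative, led by the isomerase Fkbp2 (0.37, SE 0.08), and the translocation and transport genes 14 and 14, led by Ssr2 of the translocon-associated complex (0.27, SE 0.07). Other degradation genes were 16 positive and 13 negative with 11 under 0.05 (6 higher, 5 lower), led by Ubxn4 at -0.31 (SE 0.05, unadjusted p = 0.000136), and 12 of 18 regulators of IRE1 and ATF6 were negative, led by Gtf2i (-0.26, SE 0.06). Against this the 7 degradation members were all negative without the length and GC offset; the difference between the lists was not tested.

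In cerebrum, 29 of 35 other ATF4 targets tested had a negative log2 fold change (median -0.11, 6 of them with an unadjusted p under 0.05), led by Gpt2, an alanine aminotransferase, from 41.5 to 53.99 CPM over the Tol and from 63.4 to 69.9 over the WT cerebra (-0.54, SE 0.08, edgeR unadjusted p = 0.000125, adjusted p = 0.147). The members of the PERK/ATF4 arm were negative in 4 of 6 there, and all genes tested in 8012 of 15596. The part of the GC content trend in the counts of this list was not tested. Of the other lists, Mogs, a glucosidase (-0.32, SE 0.08), Sec63 (0.14, SE 0.05), Ppp1r15b, a subunit of the eIF2 phosphatase (-0.20, SE 0.07), Rnf5, a ubiquitin ligase (-0.15, SE 0.06), and Tmbim6, an ER membrane protein (-0.19, SE 0.05), had the lowest p in their list. In cerebellum the lowest were Dnajc10 (0.28, SE 0.10), Spcs2 (0.13, SE 0.09), Slc7a11, the cystine transporter (1.09, SE 0.33), Eif2ak4 (-0.14, SE 0.11), Edem2 (-0.28, SE 0.13) and Rtcb, the ligase that joins cut Xbp1 mRNA (0.22, SE 0.11). Without cerebellum Tol 2 these 6 were at 0.15, 0.08, 0.37, -0.28, -0.14 and 0.09 in the same order.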

How the data were processed

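Frozen thymus, cerebrum and cerebellum were sequenced from stranded, poly(A)-selected libraries. Per the study's methods, the authors quantified reads with Salmon 0.14.1 against mouse transcripts (GRCm38) plus that of Tol. Their deposited values are expected counts by gene, held as whole numbers without normalization. How transcripts were summed to genes and whether strand was used are not given in the sources used here. Members with exons that overlap another gene (Hsp90b1, Pdia3, Pdia4, Pdia6, Dnajb9, Manf, Eif2ak3, Ddit3, Ppp1r15a, Syvn1, Derl2) or with a pseudogene (Calr) are therefore less certain. The sample titles say only Tol or WT, so the columns named MRT, the only ones not named WT, were read as Tol from the words of the series title (multiple reporter protein tolerant), and 0 of 22 columns were unused.

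Tol was compared with WT in R 4.3.3 with edgeR 4.0.16 (TMM, filterByExpr, quasi-likelihood F test, Benjamini-Hochberg over all genes tested, threshold 0.05). Standard errors were taken from the F statistic. Organs were compared over the WT libraries, and genotype by organ over those of thymus and cerebrum. Full statistics were given for members with an unadjusted p under 0.05 or the lowest p of their arm, for Xbp1, Atf4, Hspa5 and Ddit3, for the largest and smallest organ difference of each arm, and for the lowest p of each other list. Further genes named with values were chosen after those were seen. The members and lists were chosen with earlier results of these data known. Positions are from GENCODE vM21, lengths are those of the longest protein-coding transcript, and promoters are from RefSeq.

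The fits were tested on simulated data. Replicates of every group differed beyond counting noise, with a chi-square statistic of 4.98 to 208 for each degree of freedom, so each library is 1 replicate. The labels name separate samples and the study describes tissue of Tol and WT animals, without saying which libraries share an animal, and p-values measure the spread between these samples. Alternatives were DESeq2 1.42.0, its size factors within edgeR, no filter, a minimum of 10 counts, robust moderation, a replicate block, all 22 libraries together, an offset for length and GC content with and without the block, thinning to the smallest total, and leaving out each library. Lists, promoter groups and counts over the organs without cerebellum Tol 2 were added after seeing the data.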

Additional observations from a re-analysis of the deposited data

Results flagged for a closer look

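In 10 of 161 groups of 4 libraries, 1 library lay apart from the other 3 by Dixon's criterion, where about 8.05 are expected from chance at 1 in 20. In thymus these were Hspa5 in WT 4 (383.4 CPM, the next 363.6), Eif2ak3 in Tol 4 (65.58, the next 79.04), Derl2 in Tol 1 (37.53, the next 40.47) and Derl3 in WT 3 (0.5568, the next 1.618). The Hspa5 value widens the WT group away from the Tol libraries, and the remaining 3 WT libraries, at 363 to 364 CPM, were also above every Tol library.

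In cerebrum, 3 such values were those of Tol 4, the library with the smallest total: Dnajb11 was highest there (46.59 CPM, the next 40.77), and Eif2ak3 (27.5, the next 31.76) and Syvn1 (43.07, the next 50.59) were lowest. Chac1 was highest in cerebrum Tol 2 (8.187, the next 7.098), lowest in cerebrum WT 4 (5.597, the next 7.38) and highest in cerebellum WT 1 (7.698, the next 6.125). No member had its genotypes apart in opposite directions in 2 organs.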

How the results depend on the processing

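No member that was called under an alternative changed direction under those run, while uncalled members near 0 in thymus did (Ern1, Atf6, Derl1 and Derl2 among them). In thymus, 16 genes and 0 members were called. The gene count was 1296 by DESeq2, 130 without a filter, 85 with at least 10 counts, 38 with robust moderation, 29 with all 22 libraries, 34 after thinning, 5 with a replicate block and 10 with the block and the length and GC offset, and ran from 0 to 2978 over the libraries left out (2978 without Tol 1). Members called were 5 by DESeq2 and 0 to 5 over the libraries left out (5 without Tol 1). Members at an unadjusted p under 0.05 (10) were 6 with the replicate block, with or without the offset, and 5 to 11 over the libraries left out (5 without Tol 2, Tol 4 or WT 1, and 6 without WT 4). In cerebrum, 0 genes were called, against 187 by DESeq2, 25 with all 22 libraries and 0 to 7 over the libraries left out. The 2 members under 0.05 became 1 with the replicate block, 0 with all 22 libraries, 4 with the offset, 1 after thinning and 1 to 3 over the libraries left out (1 without Tol 1, Tol 2 or WT 4). In cerebellum, 0 genes were called, against 9 by DESeq2 and 0 to 2 over the libraries left out. The 0 members under 0.05 became 4 with all 22 libraries and 0 to 4 over the libraries left out (4 without Tol 1, 1 without WT 2). The interaction called 19 genes, against 495 by DESeq2, 48 with at least 10 counts, 0 with the replicate block and 2 to 1116 over the libraries left out (1116 without thymus Tol 1). Its members called were 2 by DESeq2 and 0 to 2 over the libraries left out, and those under 0.05 ran from 3 to 7. The cause of these differences was not tested.

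Medians by arm were least stable in cerebellum: over the libraries left out the sensors ran from -0.50 to 0.02 and the PERK/ATF4 arm from -0.10 to 0.10. In cerebrum the degradation genes ran from -0.07 to 0.00446. Replicate numbers gave no common sign of pairing. Deviations of same-numbered Tol and WT libraries correlated from -0.21 to 0.08 in thymus, from -0.41 to 0.49 in cerebrum and at -0.22 and 0.69 in cerebellum. Between organs within a genotype, same-numbered libraries correlated from -0.01 to 0.13 (all organs in WT, thymus and cerebrum in Tol). These few values cannot settle whether the samples were paired. Organ counts in WT mice stayed within 22 to 26, 23 to 25 and 9 to 13 members.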
